A study of Bos indicus and Bos indicus x Bos taurus and Bos taurus with 6 samples.

Results

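The genes described here are 10 transcription factor genes of T cell identity and T cell subsets: BCL11B, TCF7, LEF1, GATA3, TBX21, EOMES, RORA, RUNX3, IKZF2 and FOXP3. They were taken by gene symbol from the deposited count table, which lists 21698 genes. All 10 were found, and all 10 were among the 13455 genes with enough counts to be tested. RNA was sequenced from jugular whole blood of cows of 3 breeds held on 1 university farm in Malaysia. The breeds were the indigenous tropical Kedah-Kelantan (Bos indicus, described as heat-tolerant), the composite Brangus (described as intermediate) and the temperate Holstein Friesian (described as heat-vulnerable). Each breed had 2 biological replicates (n = 2 in every mean below), and since the design text speaks of 4 cows per breed, it is unclear which cows gave each library. The cows were adult, neither pregnant nor in milk (4.5 ± 1.2 years, 450 ± 15 kg), and were sampled at the same temperature-humidity index of 44.68, so every comparison is between breeds under what the labels call heat stress, and none is against an unstressed state.

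T cells owe their identity to a small set of DNA-binding proteins. BCL11B commits a precursor to the T lineage, and TCF7 (the gene of TCF-1) and its relative LEF1 set up and keep the naive and memory state. RUNX3 favours the CD8 lineage, GATA3 supports CD4 development and type 2 helper cells, TBX21 (T-bet) and EOMES drive type 1 and cytotoxic programmes, RORA acts in type 17 helper cells and innate lymphoid cells, and FOXP3 with IKZF2 (Helios) marks regulatory T cells. Several of these genes are also active outside T cells: TBX21, EOMES and RUNX3 in NK cells, and TBX21 in some B cells. In whole blood a lower level can mean fewer cells of a type or less RNA per cell, and these cannot be told apart.

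The 6 libraries held 25275377 to 28668857 counted reads each. Markers of the main blood leukocytes and of platelets were detected in all of them. Among 8 erythroid markers HBB was detected throughout and HBA1 was at 0 in all 6. The 2 Holstein Friesian libraries differed most. Over 2-fold differences between the libraries of a breed were seen for 4.6% of tested genes in the Kedah-Kelantan pair, 14.4% in that of Brangus and 33.4% in that of Holstein Friesian. Each Holstein Friesian mean below therefore joins a pair of unlike libraries, and values are given by library.

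On a per-length scale, TBX21 and TCF7 were the most abundant of the 10 genes and FOXP3 the least. In Kedah-Kelantan, the deposited FPKM (fragments scaled by gene length and library depth) was 120 ± 5.17 (SD) for TBX21 and 118 ± 10.3 for TCF7, and the libraries of the 2 genes overlapped. LEF1 followed at 46.7 ± 2.98 and RUNX3 at 42.9 ± 1.61, then BCL11B at 16.7 ± 0.141, EOMES at 15.3 ± 1.05 and GATA3 at 10.3 ± 1.21. IKZF2 at 4.21 ± 0.544 and RORA at 3.88 ± 0.636 overlapped, and FOXP3 was lowest at 1.63 ± 0.219. In Brangus, RUNX3 and LEF1 overlapped, at 28.3 ± 2.52 and 28.05 ± 1.96 FPKM, and TBX21 (89.9 ± 13.4) lay above TCF7 (74.2 ± 0.346) in both libraries. In Holstein Friesian the order depended on the library. TBX21 made up 46.0% of the summed FPKM of the 10 genes in replicate 1 and 8.85% in replicate 2, against 31.3% to 38.5% in the other 4 libraries. The TCF7 share was 18.8% and 41.9% in the same 2 libraries.

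The identity genes BCL11B, TCF7 and LEF1 were highest in Kedah-Kelantan. BCL11B (chromosome 21, 64189235 to 64291469, minus strand, positions as in the deposited table) had 132 and 133 CPM (counts scaled to a common library size) in the Kedah-Kelantan libraries, 70.4 and 94.3 in those of Brangus, and 87.8 and 109.9 in those of Holstein Friesian, replicate 1 first. Both Kedah-Kelantan libraries were above the other 4. TCF7 (chromosome 7, 45768900 to 45800947, plus strand) had 311 and 358 CPM in the Kedah-Kelantan libraries, 249.8 and 254 in those of Brangus, and 227 and 304 in those of Holstein Friesian. Again the Kedah-Kelantan libraries were the highest, although TCF7 in Holstein Friesian replicate 2 came close to the lower of them. LEF1 (chromosome 6, 17083384 to 17200676, plus strand) had 259 and 289 CPM in the Kedah-Kelantan libraries, 186 and 208 in those of Brangus, and 127 and 247 in those of Holstein Friesian. An uncharacterised gene, LOC132345570, overlaps the LEF1 span on the opposite strand and had 0.428 to 2.45 CPM. Since strand use is not stated, a part of the reads of either gene could belong to the other.

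**Figure D1:**
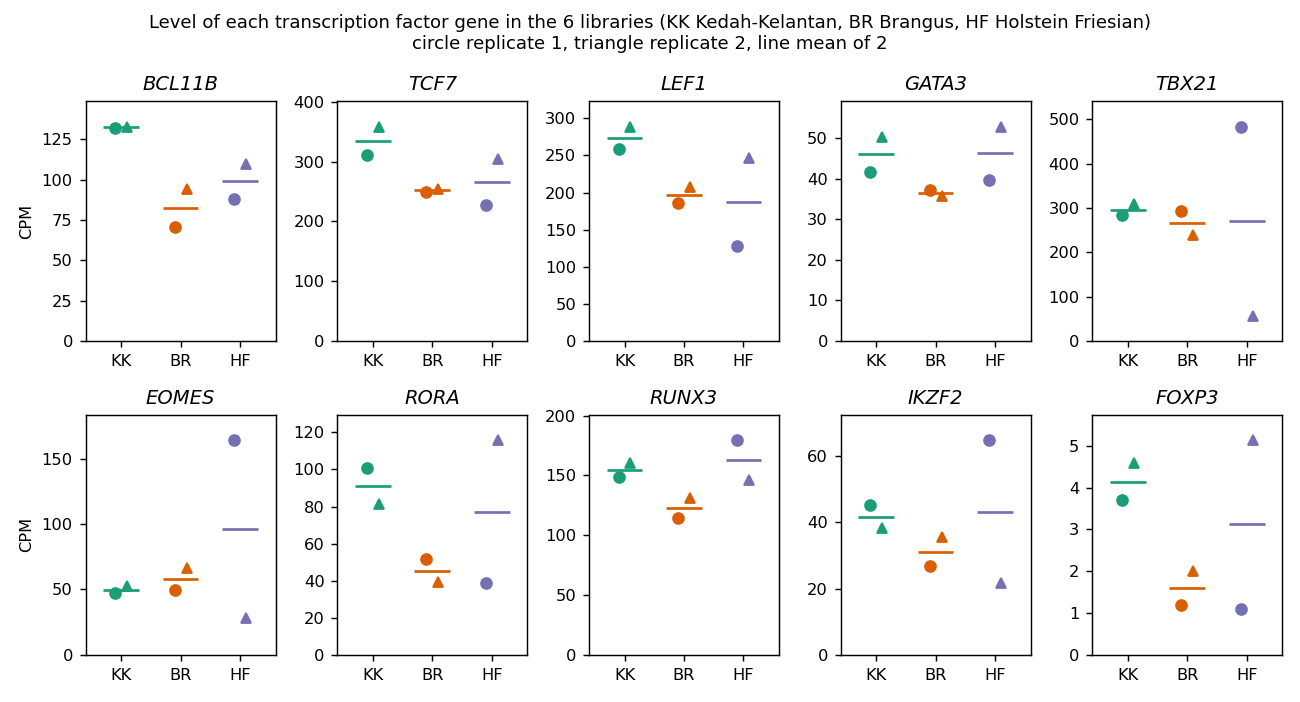
CPM of each of the 10 genes (vertical axes from 0, separate scales) in Kedah-Kelantan (KK), Brangus (BR) and Holstein Friesian (HF), with replicate 1 as a circle, replicate 2 as a triangle and the mean of 2 as a line. Kedah-Kelantan libraries lie above all others for BCL11B, TCF7 and LEF1, and the Holstein Friesian libraries lie far apart for TBX21, at 483 and 55.9 CPM, and for EOMES, at 164 and 27.97.

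GATA3, RUNX3 and RORA had their lowest breed mean in Brangus, as did BCL11B, TCF7, TBX21, IKZF2 and FOXP3, but not LEF1 or EOMES. GATA3 (chromosome 13, 15904672 to 15935245, minus strand) was the steadiest of the 10 genes, with 41.7 and 50.3 CPM in the Kedah-Kelantan libraries, 37.1 and 35.7 in those of Brangus, and 39.7 and 52.8 in those of Holstein Friesian. The Brangus libraries lay below the other 4, and the highest library was 1.48 times the lowest. RUNX3 (chromosome 2, 127998390 to 128062834, plus strand) had 149 and 160.4 CPM in the Kedah-Kelantan libraries, 114 and 131 in those of Brangus, and 179 and 147 in those of Holstein Friesian, again with both Brangus libraries lowest. RORA (chromosome 10, 48892424 to 49702373, plus strand) had 101 and 81.6 CPM in the Kedah-Kelantan libraries, 51.6 and 39.0 in those of Brangus, and 38.5 and 116 in those of Holstein Friesian. Here the first Holstein Friesian library resembled Brangus and the second lay above Kedah-Kelantan.

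The T-box genes TBX21 and EOMES overlapped between Kedah-Kelantan and Brangus and differed most between the Holstein Friesian libraries. TBX21 (chromosome 19, 38715293 to 38727078, minus strand) had 284 and 308 CPM in the Kedah-Kelantan libraries, 292 and 239 in those of Brangus, and 483 and 55.9 in those of Holstein Friesian. The 2 Holstein Friesian libraries were the highest and the lowest of the 6, 8.64-fold apart. EOMES (chromosome 22, 2109643 to 2116130, minus strand) had 47.0 and 52.9 CPM in the Kedah-Kelantan libraries, 49.4 and 66.5 in those of Brangus, and 164 and 27.97 in those of Holstein Friesian, 5.86-fold apart in the last. Per length, TBX21 was 7.98 and 7.69 times EOMES in the Kedah-Kelantan libraries, 7.80 and 4.75 times in those of Brangus, and 3.89 and 2.64 times in those of Holstein Friesian. That ratio was lower in both Holstein Friesian libraries than in the other 4.

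IKZF2 and FOXP3, both associated with regulatory T cells, differed in opposite directions between the Holstein Friesian libraries. For each of them both Kedah-Kelantan libraries lay above both Brangus libraries. IKZF2 (chromosome 2, 101004607 to 101208538, minus strand) had 45.1 and 38.3 CPM in the Kedah-Kelantan libraries, 26.7 and 35.5 in those of Brangus, and 64.6 and 21.7 in those of Holstein Friesian. FOXP3 (chromosome X, 87289535 to 87308827, minus strand) had 115 and 141 counts in the Kedah-Kelantan libraries, 28 and 47 in those of Brangus, and 33 and 135 in those of Holstein Friesian. IKZF2 was thus higher in Holstein Friesian replicate 1 and FOXP3 in replicate 2. The exact 95% Poisson intervals of the FOXP3 counts were 22.7 to 46.3 in Holstein Friesian replicate 1 and 113 to 159.8 in replicate 2, so counting error alone does not cover that gap. In CPM, FOXP3 was 3.70 and 4.58, then 1.20 and 2.02, then 1.11 and 5.13 in the same order of breeds. The FOXP3 span overlaps CCDC22 and PPP1R3F on the opposite strand, which had 18.6 to 30.0 and 1.37 to 4.19 CPM, so a part of the few FOXP3 reads could belong to them.

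In Holstein Friesian, 5 of the 10 genes differed over 2-fold between the libraries, against 33.4% of all tested genes. TBX21, EOMES and IKZF2 were higher in replicate 1, and RORA and FOXP3 in replicate 2. None of the 10 did so in Kedah-Kelantan or in Brangus, where 4.6% and 14.4% of all genes did. The median absolute log2 difference over the 10 genes was 0.19 for the Kedah-Kelantan pair, 0.35 for the Brangus pair and 1.26 for the Holstein Friesian pair, beside 0.17, 0.25 and 0.62 over all tested genes. BCL11B, TCF7, GATA3 and RUNX3 differed by 0.29 to 0.43 in size on the log2 scale in Holstein Friesian, and LEF1 by 0.95.

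**Figure D2:**
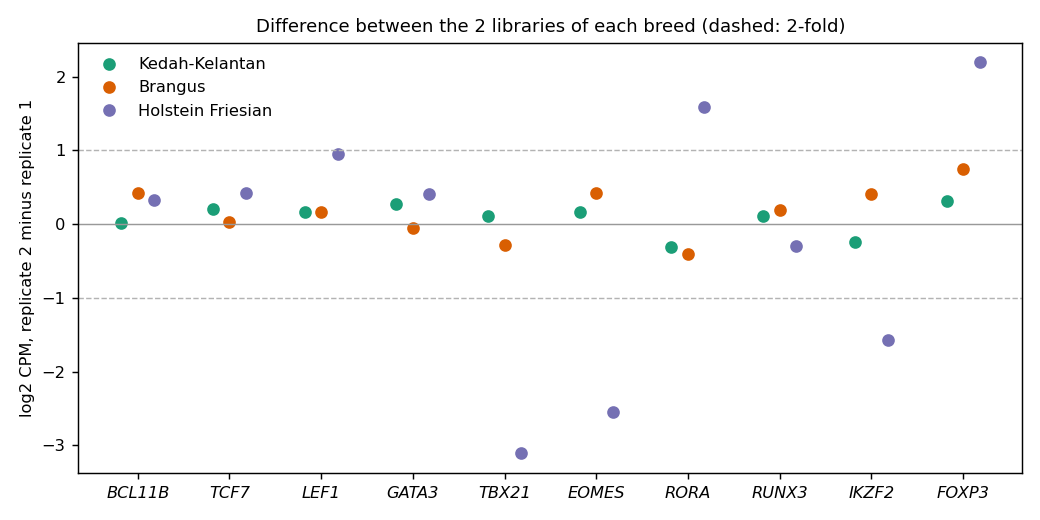
Replicate 2 minus replicate 1 in log2 CPM for each gene, 1 point per breed, with dashed lines at a 2-fold difference. TBX21, EOMES and IKZF2 lie below the lower line and RORA and FOXP3 above the upper line in Holstein Friesian, with all Kedah-Kelantan and Brangus points between the lines.

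Kedah-Kelantan and Brangus differed in the level of most of these genes, with the higher values in Kedah-Kelantan, but none passed the test that used all 6 libraries. For 8 of the 10 genes both Kedah-Kelantan libraries lay above both Brangus libraries, and for none did they lie below. Over all tested genes these shares were 33.5% and 30.7%. TBX21 and EOMES were the 2 genes whose libraries overlapped. The median log2 fold change was 0.42 over the 10 genes and 0.024 over all genes. By edgeR's quasi-likelihood test with Benjamini-Hochberg adjustment over all tested genes, 0 of the 10 passed an adjusted p of 0.05, as did 0% of all genes, and 1 (BCL11B) had an unadjusted p under 0.05, beside 11.6% of all genes. DESeq2 also called 0 of the 10, beside 4.93% of all genes, and limma on FPKM 0, beside 0%.

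By gene, the log2 fold change of Kedah-Kelantan over Brangus was 0.68 for BCL11B (SE 0.22, edgeR adjusted p = 0.383), 0.41 for TCF7 (SE 0.21, 0.502) and 0.47 for LEF1 (SE 0.33, 0.617). RORA stood at 1.01 (SE 0.53, adjusted p = 0.51) and FOXP3 at 1.36 (SE 0.82, 0.559). GATA3 (0.34, SE 0.21), RUNX3 (0.34, SE 0.18) and IKZF2 (0.42, SE 0.52) were smaller differences in the same direction. TBX21 was at 0.16 (SE 0.91) and EOMES at -0.22 (SE 0.77). In the fit of 6 libraries the spread is shared by all breeds and includes that between the Holstein Friesian libraries.

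When the 4 Kedah-Kelantan and Brangus libraries were fitted alone, 4 of the 10 genes passed, each higher in Kedah-Kelantan. Of all genes, 8.85% passed on the higher side and 9.84% on the lower side in that fit. The 4 genes were BCL11B (log2 fold change 0.69, SE 0.15, edgeR adjusted p = 0.0193), TCF7 (0.42, SE 0.11, 0.0372), LEF1 (0.48, SE 0.11, 0.0258) and RORA (1.02, SE 0.17, 0.00829). The same 4 genes passed with 5 libraries, when either Holstein Friesian library was left out, beside 18.3% and 18.4% of all genes. Over all other settings run, the adjusted p of these genes spanned 4.3e-08 to 0.999, 0.016 to 0.999, 0.0012 to 0.999 and 4.13e-13 to 0.999. The calls depended on single libraries, in fits with 1 residual degree of freedom that were chosen after seeing the data. Without Kedah-Kelantan replicate 1 the fit of the 2 breeds called 0 of the 10, without Kedah-Kelantan replicate 2 it called 1 (RORA), and without Brangus replicate 1 or 2 it called 6 (5 higher and EOMES lower, at -0.41) or 7 (all higher), beside 2.81%, 5.25%, 39.8% and 37.9% of all genes. RORA kept a log2 fold change of 0.83 to 1.23 in these 4 fits.

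**Figure D3:**
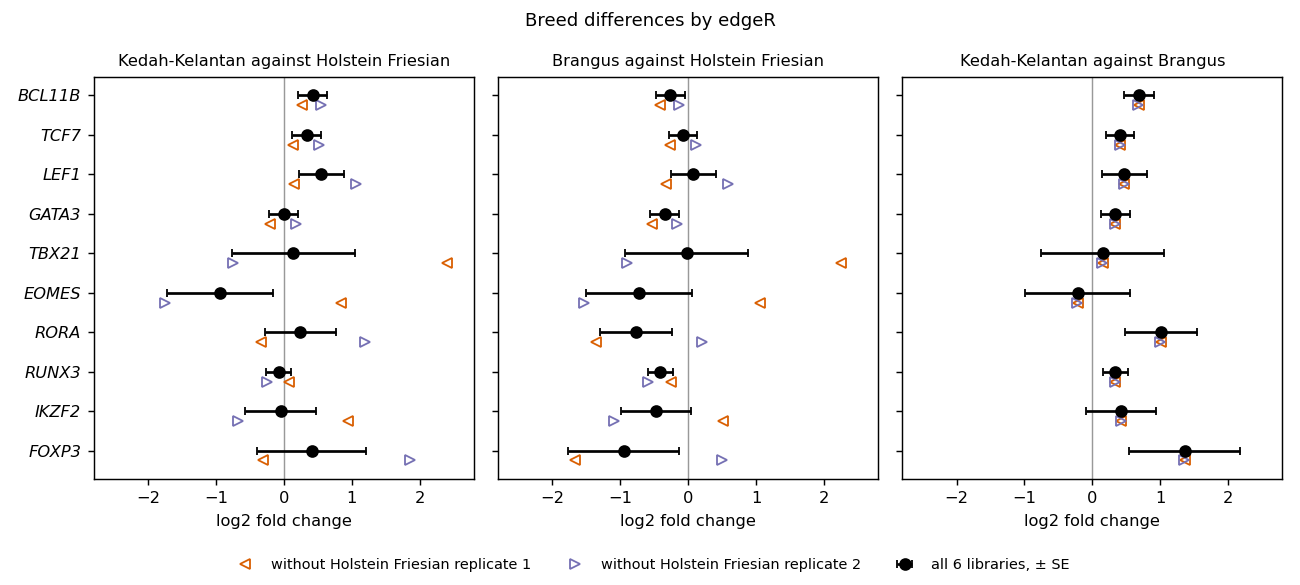
Log2 fold change of each gene by edgeR in the 3 comparisons, with all 6 libraries (filled circles, bars ± SE) and without Holstein Friesian replicate 1 or 2 (open triangles). In both comparisons with Holstein Friesian the open triangles of TBX21 and EOMES lie on opposite sides of 0, from 2.40 to -0.75 for TBX21 and from 0.84 to -1.76 for EOMES against Kedah-Kelantan, and in Kedah-Kelantan against Brangus they lie close to the circles.

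Against Holstein Friesian, Kedah-Kelantan libraries were both higher for BCL11B, TCF7 and LEF1, and for no other of the 10 genes did the libraries separate. That is 3 genes on the higher side and 0 on the lower, beside 18.1% and 12.6% of all genes. The log2 fold changes were 0.42 for BCL11B (SE 0.22), 0.33 for TCF7 (SE 0.21) and 0.55 for LEF1 (SE 0.33), each with an edgeR adjusted p of 0.995. EOMES was at -0.94 (SE 0.78) with overlapping libraries, and the other 6 genes lay between -0.075 and 0.41. No gene of the 10 passed, beside 0.00743% of all genes, none had an unadjusted p under 0.05 (4.04% of all genes did), and DESeq2 called none (0.966% of all genes). Without the filter on low counts 0 passed, beside 0.00613%. The median over the 10 genes was 0.19, beside -0.032 over all genes.

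Brangus lay below Holstein Friesian in both libraries for GATA3 and RUNX3, and for none of the 10 genes above it. The shares over all genes were 15.9% lower and 18.4% higher. The log2 value was -0.35 for GATA3 (SE 0.21, edgeR adjusted p = 0.675) and -0.41 for RUNX3 (SE 0.18, 0.659). Of the 10 genes 9 had a negative value, LEF1 at 0.076 being the exception, and the median was -0.38, beside -0.032 over all genes. The values of FOXP3 (-0.95, SE 0.82), RORA (-0.77, SE 0.53) and EOMES (-0.73, SE 0.78) were the lowest, each with overlapping libraries. None of the 10 passed, beside 0.00743% of all genes, none had an unadjusted p under 0.05 (7.62% of all genes), and DESeq2 called none (2.28% of all genes). Without the filter on low counts 0 passed here too, beside 0.00613%. In the test for any breed difference 0 of the 10 passed by edgeR, by DESeq2 and by limma on FPKM, and 0% of all genes passed by edgeR, 4.65% by DESeq2 and 0.00743% by limma. At an unadjusted p under 0.05 edgeR had 0 of the 10 genes and 8.23% of all genes.

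The comparisons with Holstein Friesian turned on which of its libraries was used. Without Holstein Friesian replicate 1, TBX21 was higher in Kedah-Kelantan by 2.40 on the log2 scale (edgeR adjusted p = 0.000276), and without replicate 2 it was lower, at -0.75 (0.0176). EOMES behaved alike, at 0.84 (0.0338) and -1.76 (0.00161). For Brangus the pairs were 2.25 (0.000158) and -0.90 (0.0128) for TBX21 and 1.05 (0.00891) and -1.54 (0.00407) for EOMES. Over all settings run their adjusted p spanned 0.000276 to 1 and 0.00161 to 1 against Kedah-Kelantan, and 0.000158 to 1 and 0.00407 to 0.955 against Brangus. In these fits the lone Holstein Friesian library is assumed to vary like the other breeds. Without replicate 1, 3 genes passed against Kedah-Kelantan and 5 against Brangus, beside 18.2% and 32.9% of all genes. Without replicate 2 the numbers were 4 and 3, beside 12.3% and 6.05%.

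Relative to T cell surface genes of the same library, the breed pattern of the identity genes was kept. The mean log2 CPM of CD3D, CD3E, CD3G, CD5 and CD6, genes of the T cell surface, was 7.84 and 8.02 in the Kedah-Kelantan libraries, 7.90 and 7.98 in those of Brangus, and 8.13 and 8.08 in those of Holstein Friesian, a narrow range beside that of several of the 10 genes. BCL11B minus this mean was -0.80 and -0.97 in the Kedah-Kelantan libraries, -1.76 and -1.42 in those of Brangus, and -1.67 and -1.30 in those of Holstein Friesian. TCF7 minus the mean was 0.44 and 0.46, then 0.06 and 0.01, then -0.31 and 0.17, and LEF1 was 0.18 and 0.15, then -0.36 and -0.28, then -1.14 and -0.13. For these 3 genes both Kedah-Kelantan libraries remained above the other 4. TBX21 on this scale was 0.31 and 0.24, then 0.29 and -0.08, then 0.79 and -2.27, so its gap between the Holstein Friesian libraries was not accompanied by one of that size in the T cell genes. With library sizes scaled to these 5 genes, edgeR called 0 of the 10 genes in each comparison. Of all genes it called 0.00743% for Kedah-Kelantan and 0.00743% for Brangus against Holstein Friesian, and 0% for Kedah-Kelantan against Brangus. The median of all genes moved by 0.17, 0.16 and 0.01 on the log2 scale in the same order.

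**Figure D4:**
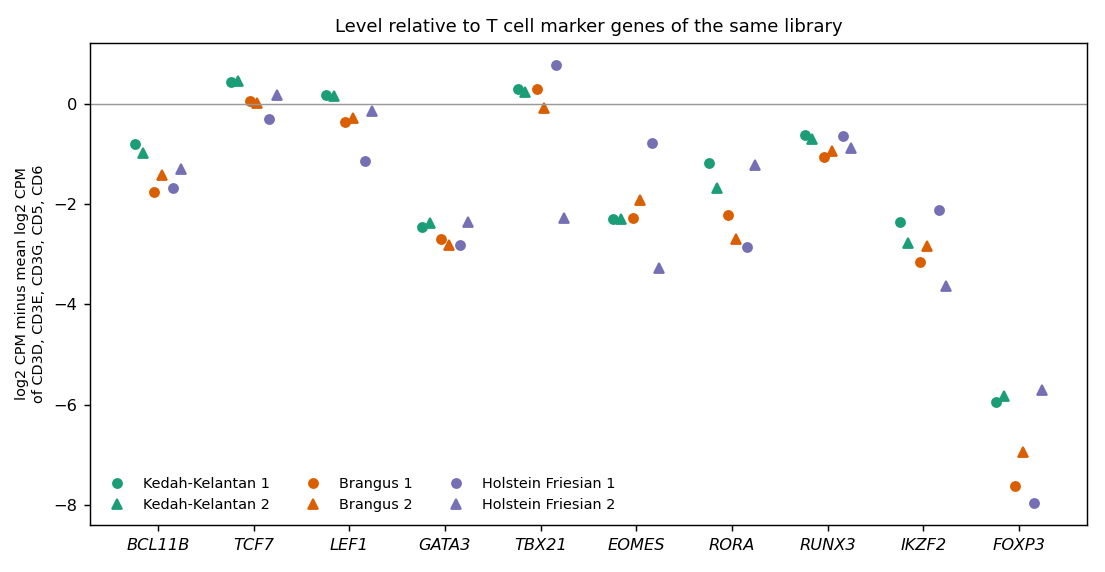
Log2 CPM of each gene minus the mean log2 CPM of CD3D, CD3E, CD3G, CD5 and CD6 in the same library, by breed (colour) and replicate (circle 1, triangle 2). Kedah-Kelantan points of BCL11B, TCF7 and LEF1 lie above those of the other breeds, and TBX21 in Holstein Friesian spans 0.79 to -2.27.

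Cell type markers also differed between the Holstein Friesian libraries. B cell and gamma delta T cell sums fell from replicate 1 to replicate 2, as TBX21 and EOMES did. Monocyte, neutrophil, and eosinophil and basophil sums rose. The NK sum also rose, but its genes moved in opposite directions. The summed CPM of 8 B cell markers, such as MS4A1 and CD79A, was 2692 in replicate 1 and 158 in replicate 2, against 1655 to 2779 in the other 4 libraries. The sum of 9 gamma delta T cell markers was 285 and 62.6 (76.4 to 122 in the other 4). The 7 monocyte markers went from 425 to 7004 and the 6 neutrophil markers in the table from 362 to 4793. The 6 eosinophil and basophil markers in the table went from 33.4 to 676. The sum of the 10 T cell markers was 2953 and 2795, but its genes moved in opposite directions. CD4 rose from 116 to 793 CPM, and CD2, CD5 and CD6 rose less. CD247 fell from 765 to 272 and CD3G from 491 to 285, and CD3D, CD3E, CD8A and CD8B also fell. The 7 NK markers summed to 275 and 1001, mostly FCGR3A, which monocytes and neutrophils can also express and which alone had 225 and 748. The NK receptor gene NCR1 had 9.96 and 17.6 CPM, and KLRD1 16.3 and 6.01. NCAM1 had counts in 1 library, Holstein Friesian replicate 1, at 0.168 CPM. The part of these cell types in the TBX21 and EOMES values was not tested.

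**Figure D5:**
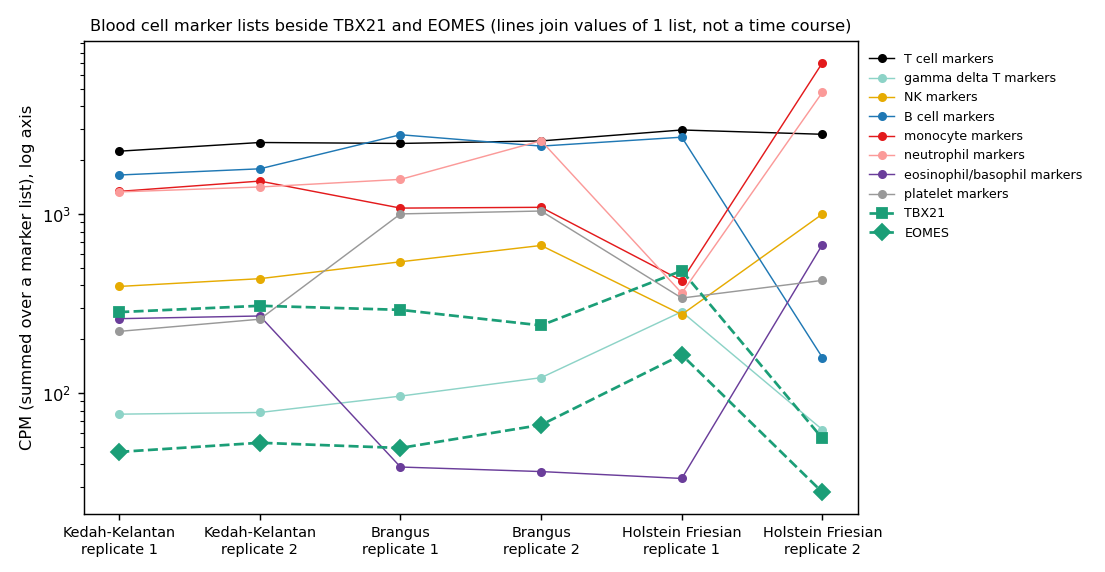
CPM of TBX21 and EOMES (dashed) and summed CPM of 8 blood cell marker lists (solid) in each library, on a log axis, where lines only join the values of 1 list. The T cell marker sum, whose genes move in opposite directions between the Holstein Friesian libraries, stays between 2248 and 2953. B cell markers, TBX21 and EOMES are all lowest in Holstein Friesian replicate 2, at 158, 55.9 and 27.97.

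Between Kedah-Kelantan and Brangus the T cell marker sums were close and several other marker sums were not. Eosinophil and basophil markers (6 in the table) summed to 261 and 270.0 CPM in Kedah-Kelantan and 38.7 and 36.5 in Brangus, platelet markers to 222 and 259 against 1004 and 1042, and B cell markers to 1655 and 1793 against 2779 and 2401, and erythroid markers to 147 and 185 against 446 and 641. The T cell marker sum was 2248 and 2514 against 2484 and 2566. Within it the co-receptor genes CD8A and CD8B were higher in both Kedah-Kelantan libraries, CD8A at 112 and 127 CPM against 61.2 and 60.7. The signalling chain genes CD3G and CD247 were lower in both, CD3G at 266 and 306 CPM against 381 and 417 and CD247 at 358 and 375 against 453 and 516. In the fit of these 2 breeds alone 2 of the 10 T cell markers passed higher (CD8A and CD8B) and 2 lower (CD3G and CD247). Of all genes, 8.85% passed higher and 9.84% lower. Fewer of the 10 passed when either Kedah-Kelantan library or Brangus replicate 2 was left out, and more when Brangus replicate 1 was. Whether these differences contribute to the values of RORA, GATA3 or the identity genes was not tested.

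Other transcription factor genes of T cells showed no edgeR call in any comparison with all 6 libraries. Of 30 such genes, all tested, 16 separated with Kedah-Kelantan above Brangus and 6 below (33.5% and 30.7% of all genes did), with a median log2 fold change of 0.19, and 9 separated with Brangus below Holstein Friesian and 0 above (15.9% and 18.4% of all genes did; median -0.19). MAF, which acts in type 2, follicular and regulatory cells, had 16.8 and 14.9 CPM in the Kedah-Kelantan libraries, 7.49 and 8.89 in those of Brangus, and 10.5 and 36.6 in those of Holstein Friesian. ZBTB16 (PLZF), the factor of innate-like T cells, had 5.08 and 4.03, then 1.33 and 1.59, then 1.71 and 5.17 CPM. In the fit of Kedah-Kelantan and Brangus alone, 3 of the 30 passed higher (SATB1, MAF and ZBTB16) and 4 lower (ID3, BATF, BCL6 and HOPX, named with SATB1 after their values were seen). That is 10% and 13.3% of the list, beside 8.85% and 9.84% of all genes. Of 12 partner proteins of these factors, 0 passed with all 6 libraries. ZFPM1 (FOG1), a cofactor of GATA proteins, had 12.7 and 14.8 CPM in the Kedah-Kelantan libraries, 3.55 and 3.01 in those of Brangus, and 9.49 and 13.4 in those of Holstein Friesian (Kedah-Kelantan against Brangus 2.07, SE 0.32, edgeR adjusted p = 0.351). HDAC2, a histone deacetylase, was at -0.59 there (SE 0.21, 0.398). At an unadjusted p under 0.05 edgeR had 0 of the 30 factors and 2 of the 12 partners in this comparison, beside 11.6% of all genes. DESeq2 called 0 of the 30 and 1 of the 12, ZFPM1, beside 4.93% of all genes. In the fit of the 2 breeds, fewer of the 30 passed when either Kedah-Kelantan library was left out, and more when either Brangus library was. The number passing over all genes fell and rose in the same way.

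Genes known as targets of T-bet, EOMES and RUNX3 were mostly higher in Kedah-Kelantan than in Brangus, where TBX21 and EOMES themselves overlapped. Of 15 effector genes, 12 separated with Kedah-Kelantan above Brangus and 2 below (median 0.85), beside 33.5% and 30.7% of all genes. With all 6 libraries edgeR called 0, beside 0% of all genes, and had 6 at an unadjusted p under 0.05, beside 11.6%. DESeq2 called 4 higher, GZMB, CCL5, FASLG and KLRK1, beside 4.93% of all genes called in either direction. CCL5, a chemokine of cytotoxic cells, had 188 and 235 CPM in the Kedah-Kelantan libraries, 56.3 and 56.8 in those of Brangus, and 47.9 and 72.3 in those of Holstein Friesian. GZMB, a cytotoxic granule protease, had 39.5 and 50.8, then 20.7 and 21.8, then 76.7 and 81.8 CPM. In the fit of the 2 breeds alone 9 of the 15 passed higher and 0 lower, among them CCL5 (1.91, SE 0.13, edgeR adjusted p = 0.000248) and GZMB (1.10, SE 0.17, 0.00532). Of all genes, 8.85% passed higher and 9.84% lower in that fit. Fewer of the 15 passed when either Kedah-Kelantan library was left out, and more when either Brangus library was left out. The number passing over all genes fell and rose in the same way. NK cells express many of these genes, and their markers also differed between the 2 breeds: NCR1 had 43.3 and 38.3 CPM in Kedah-Kelantan against 14.0 and 10.6 in Brangus, and KLRD1 38.9 and 30.9 against 1.58 and 5.28. Of 6 tested NK markers, 4 passed higher and 1 (FCGR3A) lower in the fit of the 2 breeds, beside the 8.85% and 9.84% of all genes. Fewer of these markers passed when either Kedah-Kelantan library was left out, and as many or more when either Brangus library was. The part of NK cells in the effector genes was not tested.

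Lists of naive, type 2, type 17 and regulatory T cell genes also held no edgeR call with all 6 libraries. For Kedah-Kelantan against Brangus they held 0, 1, 2 and 1 genes at an unadjusted p under 0.05, beside 11.6% of all genes. DESeq2 called CCR8 and CTLA4, both higher in Kedah-Kelantan, beside 4.93% of all genes called in either direction. Among 11 tested genes of the naive and memory state, 5 separated with Kedah-Kelantan above Brangus and 2 below, beside 33.5% and 30.7% of all genes. Their median was -0.14, opposite in sign to that of TCF7 and LEF1. CD27, a co-stimulatory receptor, had 154 and 179.9 CPM in the Kedah-Kelantan libraries, 125 and 148 in those of Brangus, and 90.0 and 119 in those of Holstein Friesian, and AXIN2, a TCF/LEF target of the Wnt pathway, had 15.6 and 14.8, then 7.32 and 7.99, then 7.68 and 17.1. In the fit of Kedah-Kelantan and Brangus alone AXIN2 passed higher and IL7R, named after its values were seen, lower. Of all genes, 8.85% passed higher and 9.84% lower in that fit. Both calls were lost when either Kedah-Kelantan library was left out, and more of the 11 passed when either Brangus library was. All 6 tested genes of the type 2 list separated with Kedah-Kelantan above Brangus (median 0.99), beside 33.5% of all genes. Among them were CCR8, with 31.1 and 32.5 against 6.46 and 11.98 CPM, and IL9R, with 20.9 and 19.6 against 7.96 and 12.5. Some genes of that list are also expressed by eosinophils or basophils, whose markers differed between these breeds as given above. Of the 6 genes, 4 passed in the fit of the 2 breeds alone, all higher in Kedah-Kelantan, beside 8.85% of all genes. All 4 calls were lost when either Kedah-Kelantan library was left out, and as many or more passed when either Brangus library was. Over all genes fewer also passed without a Kedah-Kelantan library and more without a Brangus library. IL5 was at 0 in all libraries.

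Of the type 17 list only 4 of 8 genes could be tested, IL17A being at 0 in all libraries, and the median of Kedah-Kelantan against Brangus was -0.036. Of the 4, 2 separated with Kedah-Kelantan above Brangus and 2, CCR6 and IL23R, below, beside 33.5% and 30.7% of all genes. CCR6 had 14.9 and 14.4 CPM in the Kedah-Kelantan libraries, 32.1 and 19.8 in those of Brangus, and 19.4 and 28.2 in those of Holstein Friesian. IL23R had 0.869 and 0.812, then 4.97 and 1.93, then 1.01 and 1.44 CPM. In the fit of Kedah-Kelantan and Brangus alone 2 of the 4 passed higher and 0 lower: AHR, a ligand-activated transcription factor (1.34, SE 0.16, edgeR adjusted p = 0.00196), and IL1R1, an interleukin receptor (0.76, SE 0.16, 0.0151), both named after their values were seen. Of all genes, 8.85% passed higher and 9.84% lower in that fit. Fewer of the 4 passed when either Kedah-Kelantan library was left out, and as many or more when either Brangus library was. In the regulatory list, 5 of 10 genes separated with Kedah-Kelantan above Brangus and 0 below (median 0.24), beside 33.5% and 30.7% of all genes. CTLA4, an inhibitory receptor of regulatory and activated T cells, had 5.15 and 5.85 CPM in the Kedah-Kelantan libraries, 1.46 and 1.46 in those of Brangus, and 2.21 and 5.44 in those of Holstein Friesian. IL10 had 1.77 and 1.72, then 1.11 and 6.40, then 11.0 and 3.95 CPM.

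For each factor, the genes most alike in pattern were taken by the root mean square difference of centred log2 CPM over the 6 libraries, among 11011 other genes. With this many genes and 6 libraries close matches are many, so these are descriptions. BCL11B was matched best by PDPR (0.028) and RBMX2 (0.070), TCF7 by ENTPD2 (0.059) and UNKL (0.066), and LEF1 by RCAN3 (0.089) and BANP (0.11). GATA3 was matched by WDR24 (0.026) and USB1 (0.045), RUNX3 by RGS3 (0.041) and MLST8 (0.048), and RORA by C16H1orf159 (0.059) and XYLT1 (0.084). TBX21 was closest to CMTM3 (0.11), with 852 CPM in Holstein Friesian replicate 1 and 120.1 in replicate 2, and to KANK1 (0.16). EOMES was closest to FABP3 (0.23) and LOC100335205, described as a T cell receptor gamma chain constant region (0.24). IKZF2 was closest to SLAMF7 (0.12) and NIPA1 (0.13). Among the genes near FOXP3 was LOC529196, described as a C-C chemokine receptor type 1-like gene (0.16). Among the 10 factors themselves the closest pairs were TCF7 with GATA3 (0.15), BCL11B with TCF7 (0.18) and TCF7 with LEF1 (0.20).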

How the data were processed

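Whole-blood RNA of 3 breeds was sequenced, 2 libraries each. Among tools, HISAT2 2.2.1, featureCounts 2.0.1, Trimmomatic 0.39, FastQC 0.11.9 and DESeq2 1.38.0 appear in the submitters' processing notes, with the build ARS-UCD1.2 but no roles or settings. Strand use is not given in the sources used here. Values in the deposited count table are whole reads per gene without normalisation. The deposited FPKM values, named so per the file headers, were used where levels of different genes are compared. Every value column was used.

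The test was that of edgeR 4.0.16 (R 4.3.3): filterByExpr, TMM, and a robust quasi-likelihood fit with breed as its only term over 6 libraries (3 residual degrees of freedom), with Benjamini-Hochberg adjustment over 13455 genes and adjusted p under 0.05 as a call. CPM use TMM library sizes. Each SE was obtained from the log2 fold change and the F statistic, as their quotient after taking the root of F. With 2 libraries against 2, an exact permutation test cannot go below a two-sided p of 0.333, so none was made. P-values measure the spread between these libraries, whose separate origin is known only from the labels' word for biological replicates. Replicates of a breed differed by more than sampling noise (chi-square per degree of freedom 18.0 to 501). Poisson intervals cover counting error only.

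Alternatives covered normalization, filters, DESeq2 1.42.0, limma 3.58.1 on log2(FPKM + 0.1), scaling to T cell markers, removal of erythroid genes, the libraries fitted and a replicate block. Scripts were tested on simulated data. There the fit of 6 libraries recovered 26 to 37 of 100 genes changed 4-fold, depending on the comparison. The fit of Kedah-Kelantan and Brangus alone recovered 13 of 100 genes changed 1.5-fold. A gene that did not pass is therefore not shown to be unchanged. In fits without a library, the genes tested were kept. The 10 genes and all lists were chosen with earlier results of these data known. Named are the 10 genes, up to 2 genes per list with the smallest p for any breed difference, and the 2 genes most alike in pattern to each factor, except 1 gene that is not reported here. Sequences were not used here.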

Additional observations from a re-analysis of the deposited data

How the results depend on the processing

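With 6 libraries, 0 of the 10 genes passed in any comparison under other size factors, filters, tests and scalings. Of all genes, 0% to 4.93% passed under these settings. The replicate block changed no call. Same-numbered replicates did not deviate together (correlations -0.0019 to 0.043 across breeds), and the labels give the numbers no meaning. With the replicate block the log2 fold change turned to 0.047 for IKZF2 (Kedah-Kelantan against Holstein Friesian) and to 0.38 for TBX21 (Brangus against Holstein Friesian). The 4 genes called in Kedah-Kelantan against Brangus alone passed with 1 Holstein Friesian library in the fit and were lost with both, whose spread is then shared. Leaving out 1 library, the number passing ranged from 0 to 4 for Kedah-Kelantan against Holstein Friesian, 0 to 5 for Brangus against Holstein Friesian, 0 to 7 for Kedah-Kelantan against Brangus (including fits of these 2 breeds alone, chosen after seeing the data) and 0 to 7 for any breed difference, and the number with separate libraries from 2 to 10, 2 to 10 and 8 to 10, since 1 library overlaps less easily. The number of genes separating Brangus from Holstein Friesian was 1 scaled to T cell markers and 4 on FPKM. The share of all genes with separate libraries was not counted under these settings or without a library. The numbers separating are therefore not shown to be particular to the 10 genes. When either Holstein Friesian library was left out, more of all genes also passed, in each comparison and for any breed difference.

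For Kedah-Kelantan against Holstein Friesian, scaling to T cell markers, which moved all genes by a median of 0.17, turned GATA3 to 0.16, RUNX3 to 0.10 and IKZF2 to 0.14, and limma on FPKM turned them to 0.16, 0.092 and 0.29. For Brangus against Holstein Friesian the same scaling, with a median move of 0.16, turned TCF7 to 0.085 and TBX21 to 0.17, and FPKM turned TBX21 to 0.58. FPKM also turned EOMES to 0.059 for Kedah-Kelantan against Brangus. These turns under the scaling are within or close to that common move, and the cause of the others was not tested. Without 1 library, values against Holstein Friesian spanned, for Kedah-Kelantan, -0.20 to 0.17 (GATA3), -0.75 to 2.40 (TBX21), -1.76 to 0.84 (EOMES), -0.34 to 1.20 (RORA), -0.26 to 0.078 (RUNX3), -0.68 to 0.94 (IKZF2) and -0.31 to 1.86 (FOXP3), and for Brangus, -0.27 to 0.12 (TCF7), -0.32 to 0.59 (LEF1), -0.90 to 2.25 (TBX21), -1.54 to 1.05 (EOMES), -1.35 to 0.20 (RORA), -1.09 to 0.52 (IKZF2) and -1.67 to 0.50 (FOXP3). EOMES, Kedah-Kelantan against Brangus, spanned -0.43 to 0.026, with 0.015 among the fits of all 3 breeds. BCL11B kept its direction in all 3 comparisons under every alternative run, as did TCF7 and LEF1 for Kedah-Kelantan against either breed. Depth limits FOXP3 most, with 28 to 141 counts.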

Other observations

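The co-receptor genes CD4 and CD8A, whose products divide helper from cytotoxic T cells, differed in level between libraries. Both genes are part of the T cell marker sum, so close sums do not show a matched T cell level. CD4 had 253 and 269 CPM in the Kedah-Kelantan libraries, 332 and 209.6 in those of Brangus, and 116 and 793 in those of Holstein Friesian. Monocytes can also express CD4, and their summed markers were 16.5 times as high in Holstein Friesian replicate 2 as in replicate 1; their part in the CD4 value was not tested. CD8A had 112 and 127, then 61.2 and 60.7, then 122 and 59.5 CPM, and CD8B 44.9 and 52.9, then 26.0 and 30.6, then 35.5 and 18.4. Per length, the ratio of TCF7 to LEF1 was 2.48 to 2.77 in 5 libraries and 3.68 in Holstein Friesian replicate 1, the library with the lowest LEF1 level. CD247, the zeta chain of the T cell receptor complex and of NK receptors, had 765 CPM in Holstein Friesian replicate 1 and 272 in replicate 2, in the same direction as TBX21, EOMES and IKZF2.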
